A study of Mus musculus with 6 samples.

Results

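CXC chemokines are small secreted proteins, named for a pair of cysteines with 1 residue between them, that bind G protein-coupled receptors on leukocytes and direct where those cells move. Cxcl1, Cxcl2, Cxcl3 and Cxcl5 mainly attract neutrophils through Cxcr2, whereas Cxcl9, Cxcl10 and Cxcl11 are interferon-induced ligands that attract activated T cells through Cxcr3. Keratinocytes, the skin epithelial cells from which squamous cell carcinoma (SCC) arises, can release members of both groups when NF-κB or interferon signaling is engaged. The genes described here are 10 CXC ligands, Cxcl1, Cxcl2, Cxcl3, Cxcl5, Cxcl9, Cxcl10, Cxcl11, Cxcl12, Cxcl14 and Cxcl16, given as a list of Ensembl identifiers with symbols in the same order, a pairing that was not checked against an annotation. All 10 had a row among the 17204 genes of the table. The ligands were chosen by results of these same arrays, the values that contrast the lines with and without FAK, so their differences are a description. Calls of ligands at a threshold are likewise a description and test nothing, and no exact p-value is given for any member.

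The samples were cultured mouse SCC cells of the FVB strain, from skin tumors induced with DMBA and TPA. Both lines derive from mice of the genotype K14CreER FAKflox/flox, in which a tamoxifen-activated Cre recombinase is driven by the keratin 14 promoter. The SCC FAK-/- cells are 1 clone in which the gene for focal adhesion kinase (FAK), a tyrosine kinase of cell-matrix adhesions, was deleted with 4-hydroxytamoxifen, and the SCC FAK-wt cells are the same clone after retroviral re-expression of wild-type FAK. The re-expressing cells were also kept under hygromycin selection, so that FAK, the vector and the drug cannot be told apart, and with 1 clone no other deleted clone was compared. RNA from 3 biological replicates of each line was hybridized to Affymetrix mouse genome arrays, and the labels name no other agent. Median values over all genes were 5.96, 5.90 and 5.92 on SCC FAK-wt arrays 1, 2 and 3 and 5.97, 5.97 and 5.93 on SCC FAK-/- arrays 1, 2 and 3. All values below are log2 expression after normalization that the methods name as Robust Multi-array Average (RMA), with a background correction whose form is not clear from them. A log2 difference is SCC FAK-wt minus SCC FAK-/-, so that positive values mean higher in the re-expressing cells. The identifiers of FAK itself and of epithelial or leukocyte markers were not paired with symbols here, so the labels were not checked against those genes.

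The question put to these data was whether SCC cells with and without FAK differ in their CXC ligand transcripts. None of the 10 ligands was called different at an adjusted p under 0.05 (0 of 10, limma with Benjamini-Hochberg adjustment over all genes), where 1.92% of all genes were called. The methods name a threshold of p under 0.01 without stating the test or whether p was adjusted. At an unadjusted p under 0.01 in limma, 0 of 10 were called and the share of all genes was 6.85%. At an unadjusted p under 0.05, 1 of 10 was called, Cxcl3, which was lower in SCC FAK-wt cells, against 15.5% of all genes. Cxcl3 was not called at this threshold without moderation of variances, nor without SCC FAK-wt replicate 2, SCC FAK-/- replicate 1 or SCC FAK-/- replicate 2. The 3 arrays of each line lay entirely on separate sides for 2 of 10 ligands, Cxcl3 and Cxcl5, and for 21.5% of all genes. Because the ligands were chosen with this contrast known, nothing is read from their counts. In bulk RNA, fewer cells expressing a ligand and less of its RNA per cell cannot be told apart.

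The log2 difference was positive for 7 ligands and negative for 3, and its median was 0.043, beside 0.016 over all genes. The split is not firm, since Cxcl9 turned positive with arrays centered on their medians and 4 ligands (Cxcl9, Cxcl10, Cxcl11 and Cxcl12) changed sign when a single array was left out. Centering also raised the median difference of the ligands, to between 0.068 (Cxcl12) and 0.083 (Cxcl16), and that of all genes to 0.048. The median size of the difference, regardless of sign, was 0.057 for the ligands and 0.14 for all genes. For 6 of the 10, Cxcl2, Cxcl9, Cxcl10, Cxcl11, Cxcl12 and Cxcl16, it was smaller than the median of all genes. Intervals of single ligands are given with their values to show the spread of the arrays, and as the ligands were chosen by this contrast they test nothing. On the scale of the deposited values the differences of dim genes may also depend on the background correction, which was not tested.

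**Figure D1:**
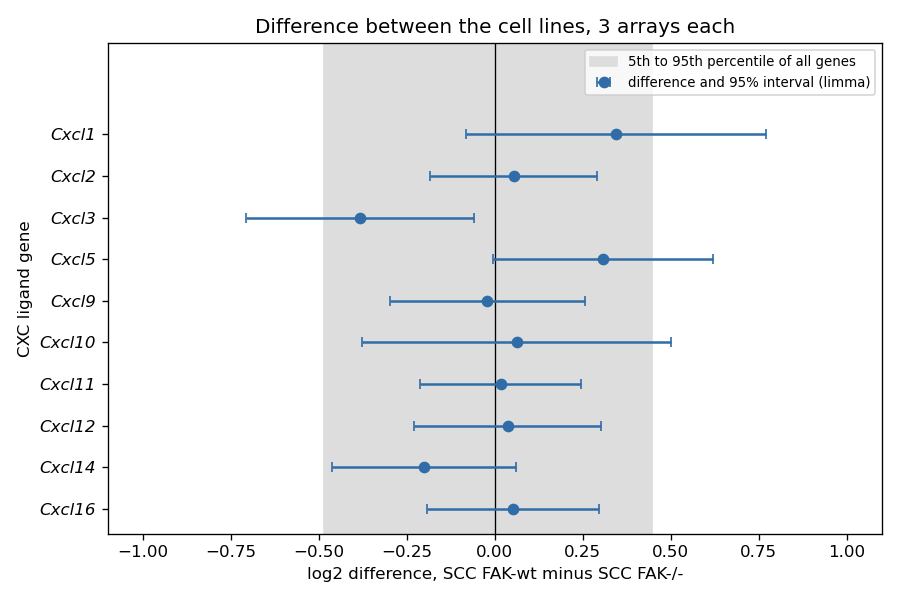
Log2 difference, SCC FAK-wt minus SCC FAK-/- (horizontal axis), for each CXC ligand gene (vertical axis). Points are means of 3 arrays minus means of 3 arrays, bars are 95% intervals from limma, and the gray band spans the 5th to the 95th percentile of all 17204 genes, from -0.49 to 0.45. All 10 points lie inside the band, from -0.38 for Cxcl3 to 0.34 for Cxcl1, and the intervals describe spread in ligands chosen by this contrast.

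Every ligand had a mean below the median of the table, which was 5.94. The value of a gene on an array depends on its probes as well as on its RNA, so these places in the table describe signal and do not rank the ligands by abundance. The highest place was that of Cxcl1, with 40.8% of genes lower, and the lowest that of Cxcl3, with 0.419% of genes lower. Of the 10 ligands, 4 (Cxcl2, Cxcl3, Cxcl5 and Cxcl11) lay in the lowest 10% of the table. Among the 7016 genes with a mean no higher than that of Cxcl1, 39 genes, or 0.556%, were called at an adjusted p under 0.05, a smaller share than over the whole table. Whether these low signals are RNA or background was not tested.

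Among the ligands of Cxcr2, Cxcl1 (ENSMUSG00000029380), a neutrophil attractant known in mice as KC, had a higher mean in SCC FAK-wt cells. Its values were 5.06, 5.40 and 5.57 on SCC FAK-wt arrays 1, 2 and 3 and 5.28, 4.97 and 4.75 on SCC FAK-/- arrays 1, 2 and 3. The highest values were in SCC FAK-wt replicates 2 and 3, but SCC FAK-/- replicate 1 lay above SCC FAK-wt replicate 1, so the lines overlapped. The mean was 5.34 ± 0.26 (SD, n = 3) in SCC FAK-wt and 5.00 ± 0.27 (SD, n = 3) in SCC FAK-/- cells, a log2 difference of 0.34 (SE 0.18, 95% interval -0.083 to 0.77). The upper bound corresponds to a 1.71-fold higher value in SCC FAK-wt cells. Without SCC FAK-/- replicate 3 the log2 difference was 0.22, and without replicate 1 of either line it was 0.48.

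Cxcl5 (ENSMUSG00000029371), a neutrophil attractant made largely by epithelial cells, also had a higher mean in SCC FAK-wt cells. It measured 2.282, 2.67 and 2.52 on SCC FAK-wt arrays 1, 2 and 3, beside 2.281, 2.04 and 2.23 on SCC FAK-/- arrays 1, 2 and 3. The lines did not overlap, but SCC FAK-wt replicate 1 and SCC FAK-/- replicate 1 were almost equal. Its means differed by 0.31 log2 units (SE 0.13, 95% interval -0.0058 to 0.62), a 1.24-fold higher value in SCC FAK-wt cells. The mean signal of Cxcl5 was low, with 4.07% of genes lower.

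Cxcl3 (ENSMUSG00000029379), a close relative of Cxcl1 and Cxcl2, differed in the opposite direction. Values of 1.79, 1.46 and 1.71 were found on SCC FAK-wt arrays 1, 2 and 3 and values of 2.15, 2.13 and 1.83 on SCC FAK-/- arrays 1, 2 and 3. The 3 SCC FAK-wt arrays were all lower, although SCC FAK-wt replicate 1 came close to SCC FAK-/- replicate 3. The mean was 1.65 ± 0.17 (SD, n = 3) against 2.04 ± 0.18 (SD, n = 3), a log2 difference of -0.38 (SE 0.14, 95% interval -0.71 to -0.060). Cxcl3 was also the ligand with the lowest signal, and its 1.456 on SCC FAK-wt replicate 2 is close to the lowest value of any gene on that array, 1.445. Without that array the log2 difference was -0.29, and without SCC FAK-/- replicate 3 it was -0.49.

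Cxcl2 (ENSMUSG00000058427), also called MIP-2, was nearly level between the lines. Its SCC FAK-wt arrays 1, 2 and 3 read 2.34, 2.35 and 2.45, and its SCC FAK-/- arrays 1, 2 and 3 read 2.43, 2.25 and 2.29. The ranges overlapped, with SCC FAK-/- replicate 1 second only to SCC FAK-wt replicate 3. For Cxcl2 the log2 difference was 0.053 (SE 0.10, 95% interval -0.18 to 0.29), and it was 0.017 without SCC FAK-/- replicate 2 and 0.11 without SCC FAK-/- replicate 1. Cxcl1, Cxcl2 and Cxcl3 are similar in sequence, and whether the authors' probe mapping lets them share probes is not given in the sources used here.

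**Figure D2:**
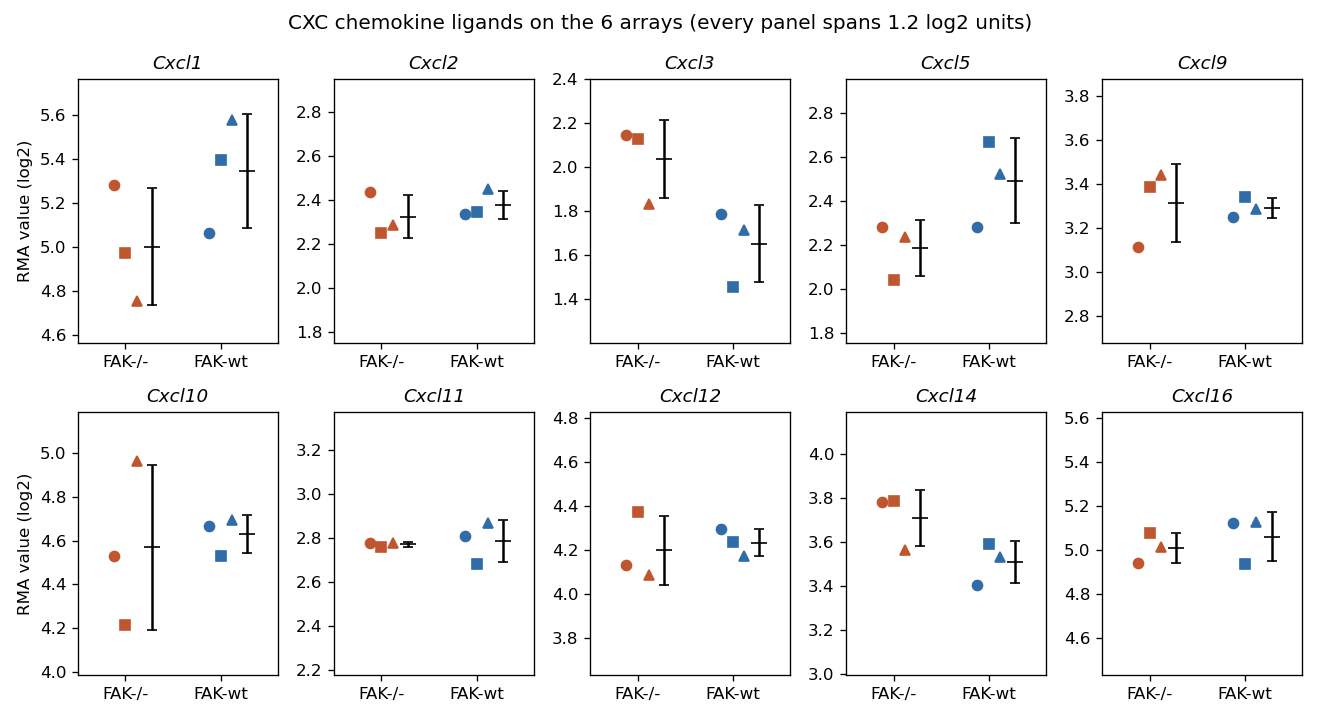
RMA value in log2 units (vertical axis) of each CXC ligand on the 3 SCC FAK-/- and the 3 SCC FAK-wt arrays (horizontal axis), with circles for replicate 1, squares for replicate 2 and triangles for replicate 3, and black marks for the mean and SD. Each panel spans the same 1.2 log2 units but starts at its own level, and the lines separate for Cxcl3 and Cxcl5 while the 3 SCC FAK-/- values of Cxcl10 spread from 4.21 to 4.96.

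Among the ligands of Cxcr3, Cxcl10 (ENSMUSG00000034855), also known as IP-10, is the member around which the family was gathered. Its values were 4.67, 4.53 and 4.69 on SCC FAK-wt arrays 1, 2 and 3 and 4.53, 4.21 and 4.96 on SCC FAK-/- arrays 1, 2 and 3. The SCC FAK-wt arrays lay close together, and both the highest and the lowest values of all 6 arrays were in SCC FAK-/- cells. The mean was 4.63 ± 0.087 (SD, n = 3) in SCC FAK-wt and 4.57 ± 0.37 (SD, n = 3) in SCC FAK-/- cells. The log2 difference was 0.061 (SE 0.19, 95% interval -0.38 to 0.50), or 1.04-fold. With array weights it was 0.13, and with arrays centered on their medians it was 0.094. Its sign turned without SCC FAK-/- replicate 2, to a difference of -0.12, and without SCC FAK-/- replicate 3 the difference was 0.26. The spread of Cxcl10 among SCC FAK-/- replicates, 0.75 from lowest to highest, was larger than the difference between the lines.

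Cxcl9 (ENSMUSG00000029417), a ligand of Cxcr3 induced above all by interferon gamma, had SCC FAK-wt values of 3.25, 3.34 and 3.29 and SCC FAK-/- values of 3.11, 3.39 and 3.44 in replicates 1, 2 and 3. The SCC FAK-wt arrays all fell between the lowest and the highest SCC FAK-/- arrays. For Cxcl9 the log2 difference was -0.022 (SE 0.12, 95% interval -0.30 to 0.25), and it became 0.010 when each array was centered on its median. Without SCC FAK-/- replicate 1 it was -0.12 and without SCC FAK-/- replicate 3 it was 0.042, so no direction can be given.

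Cxcl11 (ENSMUSG00000060183) is the Cxcr3 ligand whose gene is annotated as a transcribed pseudogene in the C57BL/6J reference, the strain known to carry a disrupted copy, whereas these cells are from FVB mice. It read 2.81, 2.68 and 2.87 in SCC FAK-wt and 2.78, 2.76 and 2.78 in SCC FAK-/- replicates 1, 2 and 3. All SCC FAK-/- values lay inside the SCC FAK-wt range. Its log2 difference was 0.016 (SE 0.098, 95% interval -0.21 to 0.25), and it was -0.026 without SCC FAK-wt replicate 3 and 0.069 without SCC FAK-wt replicate 2. The lines overlapped in each of the Cxcr3 ligands.

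The remaining ligands have receptors of their own or an unsettled one. Cxcl12 (ENSMUSG00000061353), the stromal ligand of Cxcr4, measured 4.29, 4.23 and 4.17 in SCC FAK-wt and 4.13, 4.37 and 4.09 in SCC FAK-/- replicates 1, 2 and 3. The extremes on both sides were SCC FAK-/- arrays. Its log2 difference was 0.036 (SE 0.11, 95% interval -0.23 to 0.30), and it was -0.020 without SCC FAK-/- replicate 3 and 0.12 without SCC FAK-/- replicate 2.

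Cxcl14 (ENSMUSG00000021508), a ligand made constitutively by normal skin epithelium, had a lower mean in SCC FAK-wt cells, as did Cxcl3 and Cxcl9. It measured 3.40, 3.59 and 3.53 in SCC FAK-wt and 3.78, 3.78 and 3.56 in SCC FAK-/- replicates 1, 2 and 3. The lines overlapped through SCC FAK-/- replicate 3, which was just below SCC FAK-wt replicate 2. The means differed by -0.20 log2 units (SE 0.11, 95% interval -0.46 to 0.060).

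Cxcl16 (ENSMUSG00000018920), made as a transmembrane protein and shed to attract cells with Cxcr6, measured 5.12, 4.93 and 5.12 in SCC FAK-wt and 4.94, 5.08 and 5.01 in SCC FAK-/- replicates 1, 2 and 3. The lowest value was in SCC FAK-wt replicate 2, below every SCC FAK-/- array. The log2 difference was 0.051 (SE 0.10, 95% interval -0.19 to 0.30), and it was 0.016 without SCC FAK-/- replicate 1 and 0.11 without SCC FAK-wt replicate 2.

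Of the 10 ligand genes, 7 lie on mouse chromosome 5 in the RefSeq annotation of assembly GRCm38.p6, while Cxcl12 is on chromosome 6, Cxcl16 on chromosome 11 and Cxcl14 on chromosome 13. On chromosome 5, Cxcl5, Cxcl3, Cxcl1 and Cxcl2 follow in that order, with the related Ppbp, Pf4 and Cxcl15 among them, and Cxcl9, Cxcl10 and Cxcl11 lie further along, with Art3 between Cxcl9 and Cxcl10. In the first stretch the means of Cxcl1, Cxcl2 and Cxcl5 were higher and that of Cxcl3 lower in SCC FAK-wt cells. After the mean of each line was subtracted, the deviations over the 6 arrays gave r = 0.80 for Cxcl1 and Cxcl2, r = 0.79 for Cxcl1 and Cxcl14 and r = 0.75 for Cxcl11 and Cxcl16, the highest of the 45 pairs of ligands. Only the first of these pairs lies on a single chromosome. Within chromosome 5, Cxcl1 and Cxcl3 gave r = 0.24, Cxcl9 and Cxcl10 r = 0.18 and Cxcl3 and Cxcl5 r = -0.64. The most opposed pair was Cxcl10 and Cxcl12 with r = -0.83. The median over the 45 pairs was 0.11, and 23 of the pairs were above 0. These values rest on 6 arrays that share their normalization, and they are given as a description.

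The replicates on which the ligands were highest also differed from gene to gene. SCC FAK-wt replicate 3 held the highest value for 4 ligands (Cxcl1, Cxcl2, Cxcl11 and Cxcl16), and an SCC FAK-/- array held it for Cxcl3, Cxcl9, Cxcl10, Cxcl12 and Cxcl14. Over the 6 arrays, the patterns most like that of Cxcl10 among 8602 genes with a mean over the median of the table were those of ENSMUSG00000038733, with a Pearson r of 0.988, and ENSMUSG00000031429, with r = 0.986. These identifiers were not paired with symbols here, and with 6 arrays and this many genes such values carry no weight of their own.

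Promoter sequence is a feature of the ligands outside these measurements. All 10 symbols are in the RefSeq annotation, but the promoter windows at hand covered 7 of them (GRCm38.p6, 250 bases before to 50 after the start of the gene). Cxcl5, Cxcl11 and Cxcl16 had no window in the set used here. They were searched on both strands for the letters GGGANNTNC, a form of the κB site bound by NF-κB, and GAAANNGAA, a form of the site bound by interferon regulatory factors. The first was found in 5 of 7 (Cxcl1, Cxcl2, Cxcl3, Cxcl9 and Cxcl10) and in 15.1% of all 32851 promoter windows. The second was found in 3 of 7 (Cxcl9, Cxcl10 and Cxcl14) and in 8.56% of all windows. The letters TATAAA were found in Cxcl3 and Cxcl9 and in 13.6% of all windows. A match describes these letters only, and nothing on binding in these cells follows from it.

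The matched stretches of Cxcl1 and Cxcl3, whose differences were of opposite sign, and of Cxcl10 are shown because they let the letters be read beside the values. Matches to either motif are in capitals, each stretch is written 5′ to 3′ on the strand of the gene, and matches on the opposite strand overlap those shown where the site is close to a palindrome. Cxcl1 is at chr5:90891166-90891192 on the plus strand, Cxcl3 at chr5:90786020-90786046 on the plus strand and Cxcl10 at chr5:92348975-92349110 on the minus strand.
Cxcl1: tgtactccGGGAATTTCCCtggcccgg
Cxcl3: gctgcgggGGGAATTTCCCcagcccgg
Cxcl10: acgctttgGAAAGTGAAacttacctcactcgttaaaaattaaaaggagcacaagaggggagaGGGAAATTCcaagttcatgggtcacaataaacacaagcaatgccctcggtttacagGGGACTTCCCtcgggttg

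The capitals of Cxcl1 and Cxcl3 are the same letters and begin 71 and 73 bases upstream of the start of each gene. Cxcl2 holds these letters 97 bases upstream and has a further κB match 228 bases upstream, on the opposite strand. The log2 differences of these genes were 0.34, -0.38 and 0.053 for Cxcl1, Cxcl3 and Cxcl2. The lines overlapped for Cxcl1 and Cxcl2, and Cxcl3 had the lowest signal of the ligands. Whether the letters bear on the differences was not tested. In Cxcl10 the interferon regulatory factor letters come first, 213 bases upstream, followed by κB letters 159 and 103 bases upstream. Cxcl9, which also holds both motifs, and Cxcl10 had differences of -0.022 and 0.061. Cxcl14, with the interferon regulatory factor letters alone, had -0.20, and Cxcl12, with neither set of letters in its window, had 0.036.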

How the data were processed

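The deposited values are log2 expression per Ensembl gene identifier and array. The authors obtained them from the raw files (CEL) of Affymetrix mouse genome arrays by RMA, as run in the affy package. The log2 scale was inferred from the range of the values, and the package version, probe mapping and form of background correction are not given in the sources used here. The methods name RMA but cite work on array preprocessing that may point to GCRMA, a variant with another background correction. Such a correction could alter the values of dim genes, and this was not tested. All 6 columns mapped to a sample, and 0 of 15 array pairs were identical. All 17204 genes were fitted, unfiltered, on the line alone (limma 3.58.1, R 4.3.3, lmFit and eBayes, two-sided), with Benjamini-Hochberg adjustment, after the script was tested on simulated data. Arrays have no read depth, their number limits precision, and 3 against 3 arrays cannot give an exact two-sided permutation p below 0.1. Members and lists were chosen with earlier results of these data known. The rule for naming covered all 10 ligands, genes of pathway lists and the genes most like Cxcl10 and Cxcl1, of which at most 2 identifiers are given. The symbols of the ligands were taken from the order of names in their list and not checked against an annotation. Since 0 of 17204 identifiers were found in the RefSeq table (GRCm38.p6), CXC receptors, signaling genes, markers and FAK were not analysed here. Promoters were searched with Python 3.11.15. Alternatives were the variance moderation, scaling, array weights, a filter on dim genes, a replicate block, leaving out each array and the call threshold.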

Additional observations from a re-analysis of the deposited data

How the results depend on the processing

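None of the 10 ligands was called at an adjusted p under 0.05 in limma, without moderation or under any other setting (0 ligands), although leaving out the dimmest genes removed all but 2 of them. At an unadjusted p under 0.05, 0 to 3 ligands passed, where 15.5% of all genes did so in the fit with default settings. The share of all genes was not counted in the other settings, so nothing is read from which ligands passed. Cxcl3 was lost without moderation and in 3 of 6 fits with an array left out, Cxcl5 was gained with trended and robust moderation, with centering and without SCC FAK-wt replicate 1, and Cxcl1 was gained without replicate 1 of either line. Over 100 refits of single ligands (4 scalings or weights and 6 omitted arrays), 6 ligands kept their sign throughout. Cxcl9, Cxcl10, Cxcl11 and Cxcl12 changed sign when an array was left out, and Cxcl9 also when arrays were centered. Of all genes, SCC FAK-wt cells had 141 above and 189 below SCC FAK-/- at an adjusted p under 0.05. Trended and robust moderation gave 247 and 302, no moderation 14 and 25, and an unadjusted p under 0.01 gave 549 and 630, the last by its looser threshold. For the moderation settings the cause was not tested. With an array left out, and so fewer samples, 44 to 77 were higher and 64 to 121 lower. The replicate block gave 69 higher and 91 lower and called 0 ligands, and the cause was not tested. The labels and methods state no pairing of same-numbered arrays. Deviations of same-numbered arrays from their line's mean correlated at -0.0338 to 0.028 across genes, and whether such arrays share a batch was not tested. Centering moved the median difference of all genes from 0.016 to 0.048. It also raised Cxcl2 from 0.053 to 0.086, Cxcl11 from 0.016 to 0.048, Cxcl12 from 0.036 to 0.068 and Cxcl16 from 0.051 to 0.083. The signals of Cxcl2, Cxcl3, Cxcl5 and Cxcl11 lay among the lowest 10% of genes, and how far they stand over background was not tested.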
